A study of Mus musculus with 6 samples.

Results

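The genes examined here are 10 regulators of mitochondrial biogenesis, taken by symbol from a table of 24054 genes: the coactivators Ppargc1a, Ppargc1b and Pprc1, the transcription factors Nrf1, Gabpa, Esrra and Ppara, the sirtuins Sirt1 and Sirt3, and Nampt. All 10 were found in the table and all 10 passed the filter on low counts, which kept the 14568 genes whose mean exceeded 1 CPM (a gene's count scaled to a common library total, the unit usual for RNA-seq) in either group. The substantia nigra (SN) had been taken from 3 MitoPark mice and 3 controls of their litters, aged 16 to 17 weeks by the series record, and its polyadenylated RNA sequenced. MitoParks are Dat +/Cre and Tfam LoxP/LoxP, so that Cre under the dopamine transporter gene deletes Tfam in dopaminergic (DAergic) neurons. The study's methods give the controls as Dat +/+ and Tfam +/LoxP, so these too carry a floxed Tfam allele but no Cre, and the Cre allele and the loss of Tfam cannot be told apart, and the labels name a C57BL/6 background for both groups. No mouse was treated. Because Cre acts in DAergic neurons only, the other cells of the dissected tissue keep Tfam, and their RNA is part of every value below.

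Mitochondria are built from proteins of the nuclear genome and a few of the mitochondrial genome, and PGC-1 coactivators set the rate by docking onto transcription factors of nuclear genes. PGC-1α (Ppargc1a) answers to energy demand and cold, PGC-1β (Ppargc1b) is its close relative, and PRC (Pprc1) is a more distant one linked to growth. NRF-1 (Nrf1) and the GABP α subunit (Gabpa, also called NRF-2) bind promoters of respiratory chain genes and of Tfam, which packages and transcribes mitochondrial DNA. ERRα (Esrra) and PPARα (Ppara) are nuclear receptors for oxidative and fatty acid genes. SIRT1 deacetylates PGC-1α, SIRT3 deacetylates enzymes within mitochondria, and NAMPT makes the precursor of the NAD that both sirtuins consume.

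The proximal promoters of these genes were read first, since NRF-1 and GABP are themselves among the regulators. RefSeq promoters (GRCm38.p6, 250 bases before to 50 after a start) were at hand for 9 of the 10 genes, with 11 promoters in all, and for Tfam. For 6 short motifs, both strands were searched. The NRF-1 core GCGCATGC lay in promoters of 2 of the 9 genes, Esrra and Ppara, and in 2.71% of all 32851 promoters. The ETS core CCGGAAGT, which GABP binds, lay in that of Sirt3 among the regulators, in that of Tfam, and in 3.89% of all promoters. The YY1 core AAGATGGC lay in that of Gabpa (2.75% of all), and the E-box CACGTG in 2 places of that of Sirt1 (7.15% of all). The ERR core AAGGTCA (4.72% of all) and the cAMP response element TGACGTCA (1.79% of all) were in none of the 11. The regulators are counted by gene, but the shares are of promoters, 32851 promoters of 27025 genes. G and C made up 66% of the promoter of Esrra and 74.7% of that of Ppara, against a median of 52.7% over all promoters. The part of this content in the NRF-1 matches was not tested. Windows that hold a match are shown because they place the letters that NRF-1, GABP and other factors are known to bind beside the starts of these regulators. Capitals mark the match, each window reads 5′ to 3′ on the strand of its gene, and a match on the opposite strand appears as its reverse complement.
Tfam, ETS core, chr10:71238072-71238103, minus strand: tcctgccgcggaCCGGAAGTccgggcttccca
Sirt3, ETS core in reverse, chr7:140882376-140882407, minus strand: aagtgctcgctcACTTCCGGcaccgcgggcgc
Esrra, NRF-1 core in reverse, chr19:6921823-6921854, minus strand: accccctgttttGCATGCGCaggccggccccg
Ppara, NRF-1 core, chr15:85735733-85735764, plus strand: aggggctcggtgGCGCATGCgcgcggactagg
Gabpa, YY1 core in reverse, chr16:84835045-84835076, plus strand: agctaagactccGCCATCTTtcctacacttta
Sirt1, E-box, chr10:63339061-63339090, minus strand: ggaggggcgggtCACGTGacggggtttaaa
The ETS match of Tfam began 47 bases before the start and that of Sirt3 86 bases before it. The NRF-1 matches of Esrra and Ppara began 34 and 31 bases before it, and in Ppara a match on the opposite strand overlaps the one shown. A match of letters is a description of these windows, and no binding was measured in these samples.

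Each mouse had a total of 8140777 to 10528602 expected counts, and between 57 and 1057 counts per mouse lie behind the values of the 10 regulators. All values per group below are TMM-normalized CPM, as mean ± SD. Nothing in the labels says that mice came from separate litters, so the p-values measure the spread between these 6 mice. The 15 DAergic neuron markers were all detected, but their summed level was 1826 CPM in control 3 against 585.2 and 690.0 CPM in controls 1 and 2, and between 377.1 and 722.5 CPM in MitoParks. All 15 were below 0 in the fitted log2 fold change, 2 of them past the cutoffs used below. This direction rested on control 3, since without it 9 of 14 tested markers were below 0 and 5 above, and their median went from -0.67 to -0.08. Th, the gene of tyrosine hydroxylase, was at 55.7, 47.4 and 159.4 CPM in controls against 39.0, 57.0 and 65.5 CPM in MitoParks, and Slc6a3, the dopamine transporter gene, at 72.6, 65.3 and 383.4 CPM against 13.3, 51.1 and 40.9 CPM. Without control 3, the log2 fold change of Th went from -0.70 to 0.07 and that of Slc6a3 from -2.30 to -0.97. Summed microglia markers were at 208.7 to 266.3 CPM in controls and at 257.1 to 290.4 CPM in MitoParks, where 7 of 8 had higher means, 1 with an unadjusted p below 0.05, and summed blood cell markers at 183.1 to 319.4 and 301.7 to 404.5 CPM. In MitoPark 3, the 3 tested serotonergic markers summed to 53.4 CPM against 18.3 to 21.1 CPM in the other mice. Most of the sum in the other mice was Htr1a, at 17.8 to 20.6 CPM in all 6 mice. Tph2 was at 23.4 CPM in MitoPark 3 and at 0.244 to 0.782 CPM in the others. Slc6a4 was at 9.41 CPM in MitoPark 3 and at 0 to 0.19 CPM in the others. In this bulk tissue, fewer cells of a type and less RNA per cell cannot be told apart. The Dat +/Cre genotype of MitoParks concerns the Slc6a3 gene itself. Its part in the level of Slc6a3 cannot be told apart from these and was not tested.

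Tfam was lower in MitoParks. It stood at 40.3, 44.4 and 45.5 CPM in controls and at 32.7, 33.1 and 33.2 CPM in MitoParks, so the groups did not overlap. The fitted ratio was 0.76 (95% interval 0.64 to 0.904), with an unadjusted p = 0.00565 by edgeR's quasi-likelihood test, and its adjusted p over all genes (edgeR, Benjamini-Hochberg) was 0.999. The 1.5-fold cutoff used below was not reached.

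None of the 10 regulators was called. With both cutoffs, 0.05 for the unadjusted p and 1.5 for the fold change, the count was 0 of 10 against 0.577% of all tested genes. By the p alone it was 0 of 10 against 1.11%. The groups overlapped for all 10, where they did not for 4.71% of all tested genes. For 10 genes, counts of 0 lie near these backgrounds. The smallest unadjusted p of a regulator was 0.255, for Gabpa, and adjustment brought all 10 to 0.999 (quasi-likelihood test of edgeR). Log2 fold changes ran from -0.12 for Pprc1 to 0.19 for Gabpa, with 6 regulators above 0 and 4 below, and their median was 0.03 where that of all tested genes was -0.005. The 95% intervals bound a change in RNA of the whole tissue, not one within DAergic neurons alone. For 9 of the 10, the whole 95% interval of the ratio lay between 0.667 and 1.5, and that of Ppargc1a reached slightly below. These intervals are for each gene alone, without adjustment over genes.

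**Figure D1:**
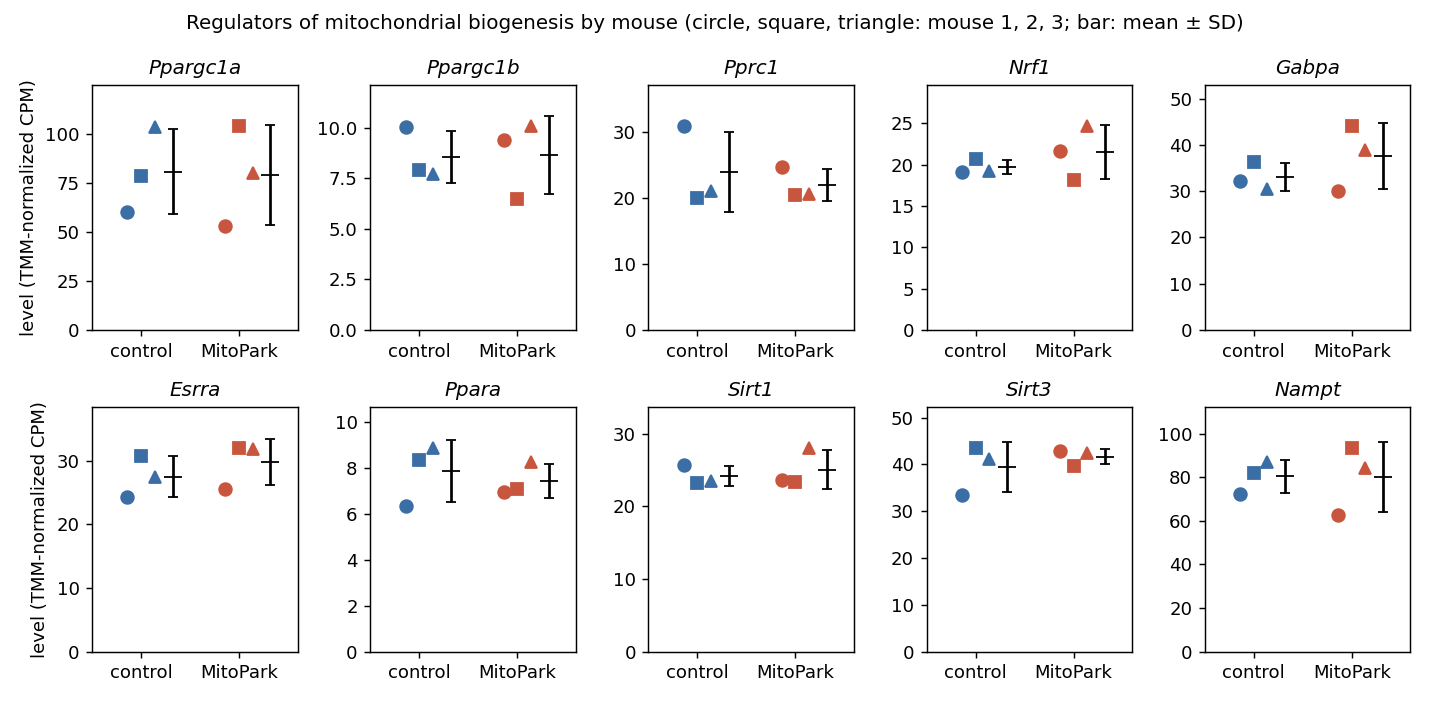
Each panel plots 1 regulator in TMM-normalized CPM (vertical axis from 0) for 3 controls (blue) and 3 MitoParks (red), with mean ± SD as a black bar beside each group. The groups overlap in all 10 panels, and Ppargc1a spans 52.8 to 104 CPM.

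Among the coactivators, Ppargc1a varied most. It was at 60.3, 78.4 and 103.3 CPM in controls 1 to 3 and at 52.8, 104 and 79.9 CPM in MitoParks 1 to 3. Mouse 1 was the lowest in either group, and both groups covered almost the same range. Controls averaged 80.6 ± 21.6 CPM and MitoParks 78.9 ± 25.6 CPM (SD, n = 3 each). The fitted ratio was 0.979 with a 95% interval of 0.662 to 1.45, and the unadjusted p was 0.907 from edgeR's quasi-likelihood test. The highest mouse had 1.71 times the lowest in controls and 1.97 times the lowest in MitoParks. With 433 to 1057 counts per mouse, counting error alone would give an SD of 0.0522 on the log2 scale, and the SD within groups was 0.44. That spread was larger than for 94.97% of the 7889 tested genes between 7.65 and 80.3 CPM, the range of the regulators' means, for which the median was 0.17. The 95% interval of Ppargc1a was accordingly the widest of the 10.

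Ppargc1b, the relative of Ppargc1a, was rarer. Its values were 10.02, 7.88 and 7.72 CPM in controls and 9.39, 6.47 and 10.1 CPM in MitoParks. The controls stood in the opposite order to that of Ppargc1a, and MitoPark 2, the highest mouse for Ppargc1a, was the lowest for Ppargc1b. The ratio of MitoPark to control was 1.01 (95% interval 0.718 to 1.43, unadjusted p = 0.941 by edgeR's quasi-likelihood test). Within single mice, which needs no normalization between libraries, Ppargc1a counts were 6.01, 9.94 and 13.4 times those of Ppargc1b in controls and 5.62, 16.1 and 7.92 times in MitoParks. The ratio of the 2 coactivators thus varied widely among mice of either group, and the groups overlapped.

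Pprc1 stood at 31.0, 20.0 and 21.0 CPM in controls and at 24.7, 20.5 and 20.6 CPM in MitoParks. Control 1 was above the other 5 mice. The ratio was 0.917 (95% interval 0.69 to 1.22, unadjusted p = 0.513 by edgeR's quasi-likelihood test). Without control 1, the log2 fold change of Pprc1 went from -0.12 to 0.10.

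Of the DNA-binding factors, Gabpa came nearest to a difference. It was at 32.3, 36.4 and 30.5 CPM in controls and at 30.0, 44.2 and 38.9 CPM in MitoParks. MitoParks 2 and 3 were above every control, while MitoPark 1 was the lowest of all 6 mice. The ratio was 1.14 (95% interval 0.893 to 1.46, unadjusted p = 0.255 by edgeR's quasi-likelihood test). Leaving out MitoPark 1 brought the log2 fold change to 0.34 and the unadjusted p to 0.0395, below the 1.5-fold cutoff still, and leaving out MitoPark 2 brought it to 0.07.

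Nrf1 was steady in controls, at 19.2, 20.7 and 19.3 CPM, and less so in MitoParks, at 21.7, 18.2 and 24.7 CPM. MitoPark 2 was below all controls and the other MitoParks above them. The ratio was 1.09 (95% interval 0.875 to 1.36, unadjusted p = 0.396 by edgeR's quasi-likelihood test). Without MitoPark 3 the log2 fold change of Nrf1 was 0.0148 and without MitoPark 2 it was 0.24.

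Esrra, the ERRα gene, had 24.3, 30.7 and 27.4 CPM in controls and 25.6, 32.1 and 31.8 CPM in MitoParks. In both groups mouse 1 was lowest and mouse 2 highest. Its ratio was 1.09 (95% interval 0.872 to 1.35, unadjusted p = 0.42 by edgeR's quasi-likelihood test). Ppara was the rarest regulator by count, at 6.35, 8.36 and 8.89 CPM in controls and 6.95, 7.08 and 8.28 CPM in MitoParks. All MitoPark values fell within the range of the controls, and the ratio was 0.943 (95% interval 0.689 to 1.29, unadjusted p = 0.685 from the same test). With 57 to 91 counts per mouse, counting error would give Ppara an SD of 0.17 on the log2 scale, close to the SD of 0.21 within groups.

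Sirt1 was the steadiest regulator, with 25.7, 23.2 and 23.6 CPM in controls and 23.7, 23.4 and 28.1 CPM in MitoParks. Only MitoPark 3 stood outside the range of the controls. The ratio was 1.04 with the narrowest of the 10 intervals on the log2 scale, 0.852 to 1.26 as a ratio (unadjusted p = 0.687 by edgeR's quasi-likelihood test). Its SD within groups, 0.12 on the log2 scale, was larger than for 23.2% of the genes in the same range of means.

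Sirt3 was at 33.5, 43.6 and 41.2 CPM in controls and at 42.8, 39.7 and 42.5 CPM in MitoParks. Control 1 lay below the other 5 mice, and the MitoParks lay within the range of the controls. The ratio was 1.06 (95% interval 0.863 to 1.29, unadjusted p = 0.558 by edgeR's quasi-likelihood test). Exons of Sirt3 overlap those of Psmd13 and Ric8a on the opposite strand over 8.82% and 3.54% of their length (GENCODE M21), and whether reads were counted by strand is not given in the sources used here. Such overlaps cover 3.58% of the exons of Gabpa, 3.26% of Esrra and 1.47% of Sirt1.

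Nampt, the NAD salvage enzyme, was at 72.2, 82.2 and 87.1 CPM in controls and at 62.5, 93.6 and 84.4 CPM in MitoParks. MitoPark 1 was lowest and MitoPark 2 highest, as for Ppargc1a. The ratio was 0.997 (95% interval 0.784 to 1.27, unadjusted p = 0.976 by edgeR's quasi-likelihood test). In both groups, the 3 mice stood in the same order for Nampt as for Ppargc1a. No other regulator had that order, which 6.41% of all tested genes shared.

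**Figure D2:**
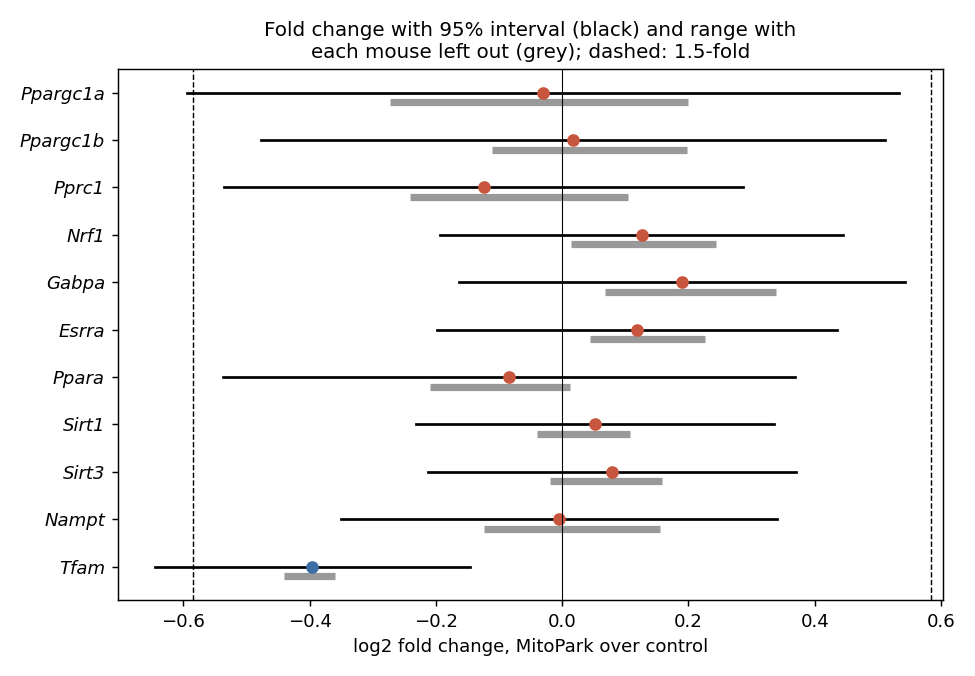
Points give the log2 fold change of MitoPark over control for the 10 regulators (red) and Tfam (blue), black lines the 95% intervals from edgeR's quasi-likelihood fit, grey bars the range with each mouse left out, and dashed lines the 1.5-fold cutoff. Every regulator's interval covers 0, and that of Tfam, from -0.64 to -0.15, does not.

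Per kilobase of exon (union over GENCODE M21 basic transcripts), Sirt3 had the highest level in controls, at 22.9 ± 3.05 CPM per kb (SD, n = 3), and Ppara the lowest, at 2.22 ± 0.38 CPM per kb (SD, n = 3). Between them came Nampt at 17.8, Ppargc1a at 12.5, Esrra at 12.2, Gabpa at 6.5, Sirt1 at 5.45, Pprc1 at 4.56, Nrf1 at 3.63 and Ppargc1b at 2.29 CPM per kb. The ranges of the 3 controls overlapped for Nampt and Ppargc1a, for Ppargc1a and Esrra, for Sirt1 and Pprc1, for Pprc1 and Nrf1, and for Ppargc1b and Ppara, so the order within these pairs is not resolved. Sirt3 and Nampt, Esrra and Gabpa, Gabpa and Sirt1, and Nrf1 and Ppargc1b did not overlap. These levels depend on the exon length chosen, since the table does not give the transcripts used.

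The place of each mouse among the regulators is given as a description, since the same counts were not made over all tested genes. Median deviations from the mean of the 6 mice ran from -0.13 in control 1 to 0.14 in MitoPark 3 on the log2 scale. MitoPark 3 was above the mean of the 6 mice for 9 of the 10 genes and had the highest value for 3. MitoPark 2 had the highest value for 4 and the lowest for 2, and control 1 and MitoPark 1 had the lowest for 3 each. Without MitoPark 3, which also had the high Tph2 and Slc6a4, 4 regulators were above 0 and 6 below, and their median log2 fold change moved from 0.03 to -0.04. Without control 3, which carried the most DAergic RNA, it was 0.08 with 8 above 0. The median moved furthest without MitoPark 1, to 0.12 with 7 above 0. The part of either library's makeup in these values was not tested.

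Some neuronal markers stood in the same order of mice as Ppargc1a. Summed DAergic markers were 585.2, 690.0 and 1826 CPM in controls 1 to 3 and 377.1, 722.5 and 696.0 CPM in MitoParks 1 to 3, the same order of mice as for Ppargc1a in both groups. That order was also found for 5 of the 15 single DAergic markers, among them Slc18a2, the vesicular monoamine transporter gene. Of all tested genes, 6.41% had it. Summed pan-neuronal markers were 4788, 5454 and 6437 CPM in controls and 4704, 5750 and 4694 CPM in MitoParks. This sum did not have the order of Ppargc1a, since MitoPark 3 lay just below MitoPark 1. That order was found for 3 of these 8 genes, Snap25, Nefl and Nefm. It was found for 1 of 8 astrocyte markers and for none of the 8 oligodendrocyte, 8 microglia and 7 endothelial markers, though summed oligodendrocyte markers spread widely, from 7178 to 18950 CPM in controls and from 9804 to 16000 CPM in MitoParks. None of the markers named in this paragraph was at 3 counts or fewer in all mice. Their part in the spread of Ppargc1a was not tested.

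**Figure D3:**
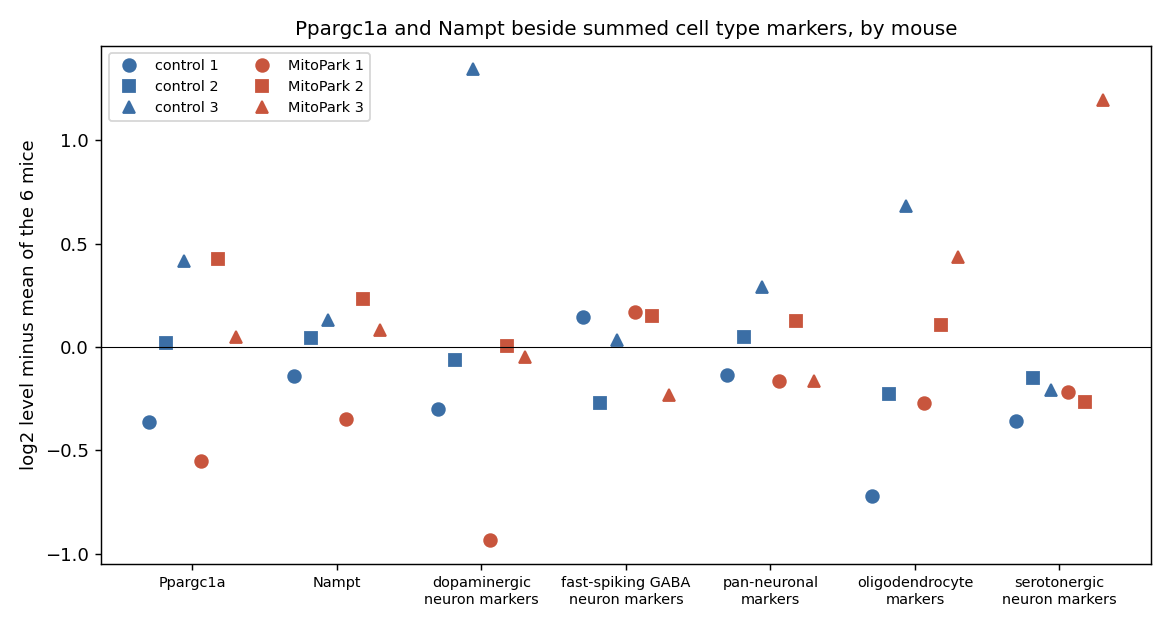
The vertical axis gives the log2 level of each mouse minus the mean of the 6 mice, for Ppargc1a, Nampt and the summed CPM of 5 marker lists, with controls in blue and MitoParks in red and mice 1, 2 and 3 as circles, squares and triangles. Ppargc1a runs from -0.55 in MitoPark 1 to 0.43 in MitoPark 2, control 3 stands apart for the DAergic markers, and MitoPark 3 for the serotonergic markers.

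Around the regulators, 133 other genes of the pathway in 9 lists were examined, of which 126 were tested. In MitoParks 58 were above and 68 below controls, with a median log2 fold change of -0.01. Only 2 of the 126 had an unadjusted p below 0.05 and 1 was past both cutoffs, shares near those of all genes (1.11% and 0.577%). For 7 of the 126, the ranges of the groups were apart (4.71% of all tested genes).

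The gene past both cutoffs was Angptl4, a fasting-induced target of PPARs that inhibits lipoprotein lipase, and it fell in MitoParks. It was at 4.23, 3.99 and 3.81 CPM in controls and at 2.56, 2.63 and 2.49 CPM in MitoParks. The groups did not overlap, on 38 to 42 counts per control and 21 to 26 per MitoPark. Their SD within groups was 0.058 on the log2 scale, below the 0.26 that counting error alone would give. The narrow ranges thus understate the spread to be expected for this gene. The ratio was 0.64 (95% interval 0.442 to 0.928), with an unadjusted p = 0.0235 by edgeR's quasi-likelihood test, where the adjusted p was 0.999. DESeq2's Wald test gave an unadjusted p of 0.0843, and the call was also lost without control 1, control 2 or MitoPark 1. None of the other 21 tested targets of PPARα and ERRα had an unadjusted p below 0.05, and the list's median was -0.01 with 8 above 0 and 14 below. Next by p came Pdk4, a brake on pyruvate use, with a ratio of 0.889 (unadjusted p = 0.302 from the same test).

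Crtc2, a coactivator of CREB on the Ppargc1a promoter, was the other gene with an unadjusted p below 0.05. It stood at 17.4, 19.6 and 20.1 CPM in controls and at 26.0, 22.6 and 24.9 CPM in MitoParks, without overlap. Its ratio was 1.29 (95% interval 1.06 to 1.56), with an unadjusted p = 0.0171 by edgeR's quasi-likelihood test, where the adjusted p was 0.999, short of the 1.5-fold cutoff, and the p was 0.0602 without control 1 and 0.0518 without MitoPark 1. Among the 23 upstream and cooperating factors, 12 were above 0 and 11 below. Perm1, known from muscle as a gene that PGC-1 and ERR induce, was at 3.9, 3.99 and 4.2 CPM in controls and at 6.09, 3.84 and 9.86 CPM in MitoParks. MitoPark 3 alone made most of that ratio of 1.63 (unadjusted p = 0.0586 from the same test), since without it the log2 fold change was 0.29 in place of 0.70. Without MitoPark 2 its p was 0.00708, past both cutoffs. That fit called 217 of all 14634 tested genes, against 84 of 14568 with all mice.

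Of the 5 other sirtuins, 3 were above 0 and 2 below, with none at an unadjusted p below 0.05. Sirt7, a nucleolar sirtuin, had the smallest p of them. It was at 11.7, 12.9 and 15.3 CPM in controls and at 18.6, 13.4 and 20.4 CPM in MitoParks, where MitoPark 2 lay among the controls (ratio 1.31, unadjusted p = 0.0663 by edgeR's quasi-likelihood test). Without MitoPark 2 that p was 0.00914, in a fit where 657 of all 14634 tested genes had an unadjusted p below 0.05. With all mice, 161 of 14568 had one. With any other mouse left out, the p of Sirt7 ran from 0.0353 (without control 3) to 0.237 (without MitoPark 3). Sirt4 followed, with a ratio of 1.07 (unadjusted p = 0.598 from the same test).

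Of 16 genes of NAD synthesis and use, 13 were tested, 9 above 0 and 4 below, and none had an unadjusted p below 0.05. The 2 with the smallest p were Cd38, which degrades NAD, with a ratio of 1.13 (unadjusted p = 0.178 by edgeR's quasi-likelihood test), and Naprt1, the gene of nicotinate phosphoribosyltransferase, with a ratio of 1.39 on 24 to 56 counts per mouse (unadjusted p = 0.195). The log2 fold change of Naprt1 was 0.48, but 0.76 without MitoPark 2 (unadjusted p = 0.0379, past both cutoffs) and 0.21 without MitoPark 3. The fit without MitoPark 2 called 217 of all 14634 tested genes.

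The AMPK list, the energy sensor that phosphorylates PGC-1α, had the lowest median of the 9 lists, -0.11, with 5 of its 8 tested genes below 0. Prkab1, a β subunit, was at 12.1, 14.5 and 12.8 CPM in controls and at 10.2, 11.02 and 12.0 CPM in MitoParks, without overlap (ratio 0.843, unadjusted p = 0.143 by edgeR's quasi-likelihood test). Prkab2, the other β subunit, was at 35.1, 32.5 and 34.2 CPM in controls and at 31.2, 31.3 and 31.1 CPM in MitoParks, also without overlap. Its ratio was 0.92 (unadjusted p = 0.291 from the same test). These were the 2 of the 8 without overlap, where 4.71% of all tested genes were. Camkk2, an activating kinase, had a ratio of 0.908 (unadjusted p = 0.262). None of the 8 had an unadjusted p below 0.05, and with MitoPark 1 left out the median was -0.02.

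Nuclear receptors that bind PGC-1 coactivators and genes that repress them gave no unadjusted p below 0.05. Nr1h3, the LXRα gene, had the smallest, at 2.45, 1.71 and 1.86 CPM in controls and 2.68, 2.73 and 3.85 CPM in MitoParks (ratio 1.54, unadjusted p = 0.067 by edgeR's quasi-likelihood test, on 18 to 34 counts per mouse). The groups did not overlap for this gene. Rxrb followed with a ratio of 1.1. Of 11 tested repressors, 7 were above 0 and 4 below. Nrip1, the corepressor RIP140, had a ratio of 0.781 (unadjusted p = 0.16 from the same test) and Zfp746, the Parkin substrate PARIS that represses Ppargc1a, one of 1.15 (unadjusted p = 0.194). The log2 fold change of Nrip1 was -0.36, but -0.62 without MitoPark 2 (unadjusted p = 0.0231, past both cutoffs) and -0.19 without MitoPark 3. The fit without MitoPark 2 called 217 of all 14634 tested genes. Zfp746 had an unadjusted p of 0.0497 without control 1, short of the 1.5-fold cutoff.

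Downstream, the 25 targets of NRF-1 and GABP other than Tfam had -0.04 as their median log2 fold change, 8 above 0 and 17 below, and none had an unadjusted p below 0.05. Their log2 fold changes ran from -0.38 for Polg2, the accessory subunit of the mitochondrial DNA polymerase, to 0.15 for Polg, its catalytic subunit. Polg2 was at 2.56, 2.38 and 2.44 CPM in controls and at 1.83, 2.12 and 1.7 CPM in MitoParks, on 15 to 25 counts per mouse (unadjusted p = 0.213 by edgeR's quasi-likelihood test). Polg was at 40.5, 35.8 and 38.7 CPM in controls and at 46.6, 40.5 and 40.8 CPM in MitoParks (unadjusted p = 0.226). Both genes were without overlap between the groups and in opposite directions, though for Polg control 1 and MitoPark 2 differed by less than the digits shown. For Polg2 the SD within groups was 0.12 on the log2 scale, below the 0.32 that counting error alone would give. They were the 2 of the 25 without overlap, where 4.71% of all tested genes were. The 9 antioxidant and uncoupling genes linked to PGC-1α had a median of -0.07, with 3 above 0 and 6 below. Txnrd2 and Cat had the smallest p among them, with ratios of 1.13 and 0.908 (unadjusted p = 0.29 and 0.434 from the same test).

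**Figure D4:**
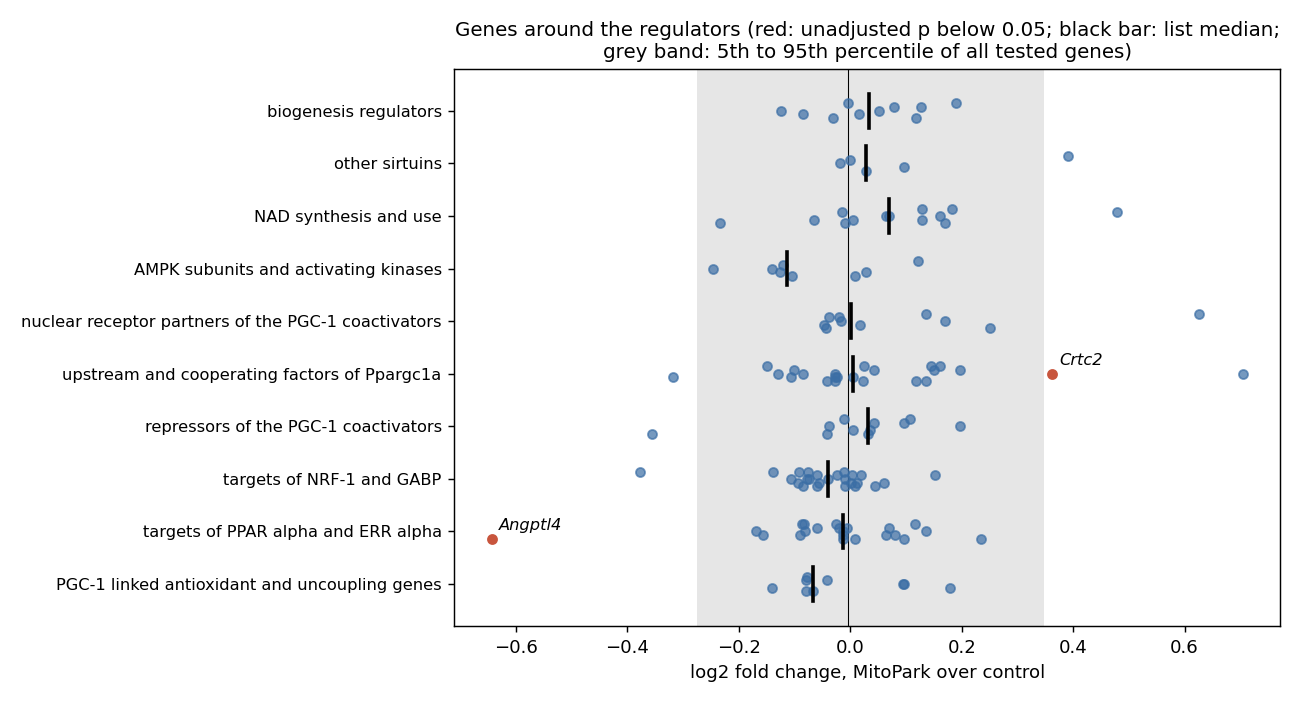
Each point is the log2 fold change (MitoPark over control) of 1 tested gene in the 10 regulators and 9 lists of related genes, with list medians as black bars and a grey band from the 5th to the 95th percentile of all tested genes (-0.28 to 0.35). The regulators all lie within the band, and the 2 red points, Angptl4 and Crtc2, are the listed genes with an unadjusted p below 0.05.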

How the data were processed

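RNA from the SN of 3 MitoParks and 3 littermate controls was analysed. The authors mapped reads with Bowtie2 2.1.0 to UCSC transcripts, estimated expected counts per gene with RSEM 1.2.15 and deposited the expected counts as RSEM gave them, not normalized. The build in the labels is a human one, so no coordinates were drawn from it. Columns were matched to samples by group name and number. Here the expected counts were rounded, genes were kept when the mean of either group exceeded 1 CPM, and edgeR 4.0.16 (R 4.3.3) was run with TMM normalization and its quasi-likelihood test on the 2 groups. Cutoffs were 0.05 for the unadjusted p and 1.5 for the fold change, after the section of the study's methods on RNA-seq. Another section of those methods names HISAT2 alignment and an adjusted p below 0.05 from a t-test, which were not used here. Intervals are 95% intervals of the fitted log2 fold change. SDs on the log2 scale used log2(CPM + 0.1). Alternatives included DESeq2 1.42.0 and limma-voom (limma 3.58.1). The procedure was tested on simulated data. Libraries within groups differed by more than sampling noise (the lowest chi-square per degree of freedom was 10.1), and none was merged. SDs given for counting error cover that error only, while the 95% intervals also include the spread between mice.

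The regulators and the lists were chosen with earlier results of these data known. The genes named are all 10 regulators, Tfam, and from each list of related genes those with an unadjusted p below 0.05 and the 2 with the smallest p. Of the listed names, 2 matched the table through a RefSeq synonym (Naprt as Naprt1, Twnk as Peo1). Pvalb, other single markers, Esrrb and Prkab2 were named after their values were seen. The fits of the named related genes, Th, Slc6a3 and the DAergic markers under the alternatives were added after seeing the data. RefSeq gave promoter sequences and GENCODE M21 exon lengths. The sequence of Ppargc1b was not used here. Figures were drawn with matplotlib 3.10.9 in Python 3.11.15.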

Additional observations from a re-analysis of the deposited data

How the results depend on the processing

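Under all 15 alternatives, 0 of the 10 regulators were past both cutoffs, and only Gabpa without MitoPark 1 reached an unadjusted p below 0.05. Tfam kept its direction and stayed short of the 1.5-fold cutoff throughout (log2 fold change -0.44 to -0.36 with each mouse left out). The number of called genes rose from 84 to 176 without the filter on low counts and ranged from 62 to 219 with each mouse left out (133 without control 1, 219 without control 3, 217 without MitoPark 2). Of the related genes, 1 was called, against 2 without the filter, 0 by DESeq2 and from 0 to 4 with each mouse left out. The 4 without MitoPark 2 were Angptl4, Naprt1, Nrip1 and Perm1, and the 2 without control 3 were Angptl4 and Esrrb. Those fits called 217 of 14634 and 219 of 14609 tested genes, against 84 of 14568 with all mice. Without MitoPark 2, 657 genes had an unadjusted p below 0.05 by edgeR's quasi-likelihood test, against 161 with all mice. More calls among the related genes thus came with more calls among all genes. Several signs changed. That of Nampt became positive with total counts (0.0092) and ranged from -0.12 to 0.155 with each mouse left out, and that of Ppargc1b was -0.00298 by limma-voom and ranged from -0.111 to 0.198. With each mouse left out, Ppargc1a ranged from -0.273 to 0.2 (0.189 without control 3, 0.2 without MitoPark 1), Pprc1 from -0.241 to 0.104, Ppara from -0.209 to 0.0125, Sirt1 from -0.0393 to 0.108, Sirt3 from -0.0191 to 0.158, Sirt4 from -0.000383 to 0.251, Cat from -0.27 to 0.058 and Th from -0.998 to 0.0658, above 0 without control 3. Slc6a3 kept its direction, and lost its call with robust dispersion (unadjusted p = 0.0859 by edgeR). The cause was not tested.

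The labels number the mice in each group and do not say whether equal numbers mark pairs. Deviations from the group means correlated at 0.307, -0.07 and 0.244 across genes for mice 1, 2 and 3. With the replicate block, 126 genes were called in place of 84, 0 of the regulators and 2 of the related genes (Angptl4 and Perm1). An unadjusted p below 0.05 was found for 323 genes in place of 161, by edgeR's quasi-likelihood test. Tfam had a log2 fold change of -0.39. By the same test with the block, the unadjusted p was 0.0352 for Th and 0.00038 for Slc6a3. Whether the mice were paired was not tested.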

Other observations

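Pvalb, the parvalbumin gene of fast-spiking GABA neurons, in which Ppargc1a is known to be enriched, followed Ppargc1a from mouse to mouse, although the gene was singled out after its values were seen. It was at 18.1, 33.2 and 62.8 CPM in controls 1 to 3 and at 23.4, 61.2 and 45.4 CPM in MitoParks 1 to 3. It had the order of Ppargc1a in both groups, as 6.41% of all tested genes did. Genes of GABA synthesis and transport had other orders. Gad1 was at 405.6, 307.2 and 339.7 CPM in controls and at 455.0, 404.1 and 339.6 CPM in MitoParks, and Slc32a1 was highest in mouse 1 of either group. Of the 126 related genes tested, 8 had the order of Ppargc1a, or 6.35%, close to the share of all genes. These are orders of 3 mice in each group, given as a description.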
